A study of Homo sapiens with 6 samples.

Results

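The genes described here are 9 genes of the thioredoxin and glutathione systems: TXN, TXNRD1, SRXN1, PRDX1, GCLM, GCLC, SLC7A11, GSR and NQO1. They were looked up by symbol in the authors' deposited table of 7150 genes, and 2 of the 9 had a row, TXN and PRDX1. The other 7 (TXNRD1, SRXN1, GCLM, GCLC, SLC7A11, GSR and NQO1) had no row, so no fold change, direction or test can be given for them here. RNA was sequenced from MDA-MB-231, a human triple-negative breast cancer cell line, labelled wild type in both groups. The 3 shikonin libraries came from cells given 0.5 µM shikonin for 24 h, the unit, which the labels write with a lower-case m, being read as micromolar, and the 3 control libraries came from cells labelled as having no treatment. The labels name no vehicle. They do not state whether a group's 3 libraries are separate cultures, so each p-value covers the spread between these samples alone, and that spread may be technical. With 0 columns holding values of single samples, neither library depth nor overlap between the groups is known here. The header does not say which group is the numerator, and a positive fold change, marked "up" by the authors, is taken here as higher in shikonin.

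Thioredoxin is a small protein with a pair of cysteines that reduces disulfides in other proteins, and thioredoxin reductase, encoded by TXNRD1, recharges it with electrons from NADPH. Peroxiredoxins such as PRDX1 use thioredoxin to destroy peroxides, and sulfiredoxin, encoded by SRXN1, rescues peroxiredoxins whose cysteine has been over-oxidised. The SLC7A11 transporter takes up cystine, the source of cysteine for glutathione. An enzyme with the subunits GCLC and GCLM joins cysteine to glutamate, GSS adds glycine to complete glutathione, and GSR keeps it reduced. NQO1 reduces quinones, the chemical class to which the naphthoquinone shikonin belongs, and the transcription factor NRF2 is known to activate many of these genes when its inhibitor KEAP1 is modified on cysteines.

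TXN and PRDX1 both rose in shikonin-treated cells, TXN by 3.05-fold and PRDX1 by 1.78-fold. In bulk RNA, a rise in every cell and a larger rise in some of them cannot be told apart. By the mean and the fold change in the authors' deposited table, TXN had an implied mean of 11526 normalized counts in shikonin, against 3780 in control. An implied mean is solved from the listed overall mean and fold with equal weight for 3 and 3 libraries, and carries no SD. The log2 fold change of TXN in the authors' deposited table was 1.61 ± 0.14 (standard error), a 3.05-fold difference with a 95% interval of 2.51 to 3.70 (adjusted p = 3.98e-28, the authors' DESeq2 test). PRDX1, the gene of a cytosolic peroxiredoxin, had an implied mean of 12392 normalized counts in shikonin and 6952 in control by the authors' deposited table. The log2 fold change of PRDX1 in the authors' deposited table was 0.83 ± 0.14, which is 1.78-fold (1.47 to 2.17; adjusted p = 2.58e-08, the authors' DESeq2 test). The intervals of the 2 genes do not overlap, but the difference between them was not tested, because they were measured in the same libraries and no per-sample values are held.

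Being called was common in this comparison: of 14252 genes tested by the authors, a number recovered from their p-values, 50.2% had a row, 25.5% as higher and 24.7% as lower. Against that background, 2 of 9 genes called higher is near the share of all genes and is not a result about the 9 as a list. The same shares are the background for each list count below, and direction also moved with transcript length, as described further on. By p-value TXN was at place 335 of the table and PRDX1 at place 3238. Over the first 4000 rows the rank recovered from p and adjusted p followed the row order to within a running median of 2.94 places. Within that precision, no gene with a p-value below 3.03e-07 (the authors' DESeq2 test) is missing from the table. Most of the 7 genes without a row therefore either had a larger p-value or were not tested. A gap of 2.94 places cannot settle this for any single gene.

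When both groups were given the same implied total over the listed genes, which lowers each log2 fold change by 0.39, TXN stood at 1.21 and PRDX1 at 0.44, below the authors' fold threshold of 1.5. The interval of PRDX1 under the authors' scaling also reaches below 1.5-fold. TXN lies on chromosome 9 from 110243811 to 110256640 on the minus strand (hg38, GENCODE 29), with 5 exons in the transcript of longest coding sequence. PRDX1 lies on chromosome 1 from 45511036 to 45523047 on the minus strand, with 6 exons. Its last 2347 bases overlap the end of MMACHC on the opposite strand, and it is not known here whether reads were counted by strand, so reads in that stretch cannot be assigned with certainty. GENCODE 29 also names 7 processed pseudogenes of TXN and 1 of PRDX1, of which 0 had a row, and reads shared with such copies make both values less certain.

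**Figure D1:**
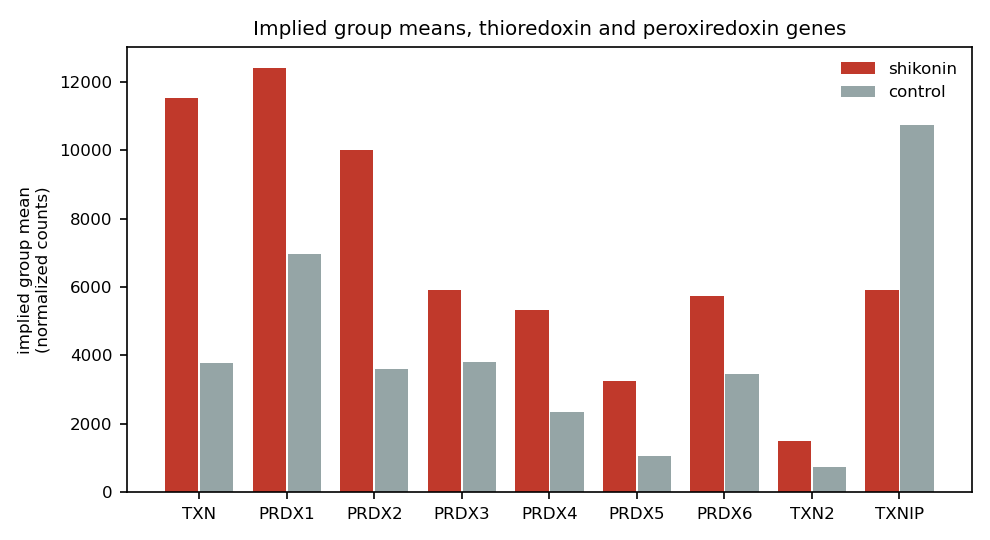
Bars give the implied group mean in normalized counts for TXN, PRDX1, the other peroxiredoxin genes, TXN2 and TXNIP, with shikonin (red) left of control (grey). Bars are to be compared within a gene only, since counts are not scaled by length, and there is no error bar because the table holds no per-sample values. TXN stands at 11526 in shikonin and 3780 in control, and TXNIP is the one gene shown that is lower in shikonin.

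Of 17 genes of the thioredoxin system, 7 were higher, 2 were lower and 8 had no row in the authors' deposited table. The 2 genes called lower include TXNIP, whose protein binds thioredoxin and blocks it. TXNIP was, by the authors' deposited table, 1.81-fold lower (1.51 to 2.18), with an implied mean of 5910 normalized counts in shikonin and 10718 in control (adjusted p = 8.80e-10, the authors' DESeq2 test). TXN was higher and TXNIP lower in the same bulk comparison. The mitochondrial thioredoxin gene TXN2 was, by the authors' deposited table, 2.06-fold higher (1.63 to 2.59). TXNL4B, a thioredoxin-like gene linked to splicing, was, by the authors' deposited table, 4.02-fold higher (3.14 to 5.14), and TXNDC16 was 2.04-fold lower (1.41 to 2.95). All 3 thioredoxin reductase genes, TXNRD1, TXNRD2 and TXNRD3, had no row.

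All 6 peroxiredoxin genes had a row and were higher, where 25.5% of all genes tested were, and PRDX1 lay in the lower part of their range. The 6 lie in deciles 1 to 3 of mature transcript length, the shortest. In those deciles 91.0% to 97.3% of protein-coding rows were higher. By the authors' deposited table PRDX5 led with 3.06-fold (2.33 to 4.01), followed by PRDX2 with 2.77-fold (2.26 to 3.40) and PRDX4, the peroxiredoxin of the endoplasmic reticulum, with 2.26-fold (1.85 to 2.76). PRDX1 came next, and the authors' deposited table then gave PRDX6 1.66-fold (1.39 to 1.98) and the mitochondrial PRDX3 1.55-fold (1.31 to 1.84). The interval of PRDX1 overlaps those of PRDX4, PRDX6 and PRDX3 and lies below those of PRDX5 and PRDX2, and no pair was tested. With equal implied totals PRDX1, PRDX6 and PRDX3 fall below the fold threshold and the other 3 stay above it. The sestrins, stress-induced proteins with a role in peroxide metabolism, were split: SESN2 was, by the authors' deposited table, 4.22-fold higher (3.19 to 5.60) and SESN3 2.99-fold lower (2.19 to 4.09), while SESN1 had no row.

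**Figure D2:**
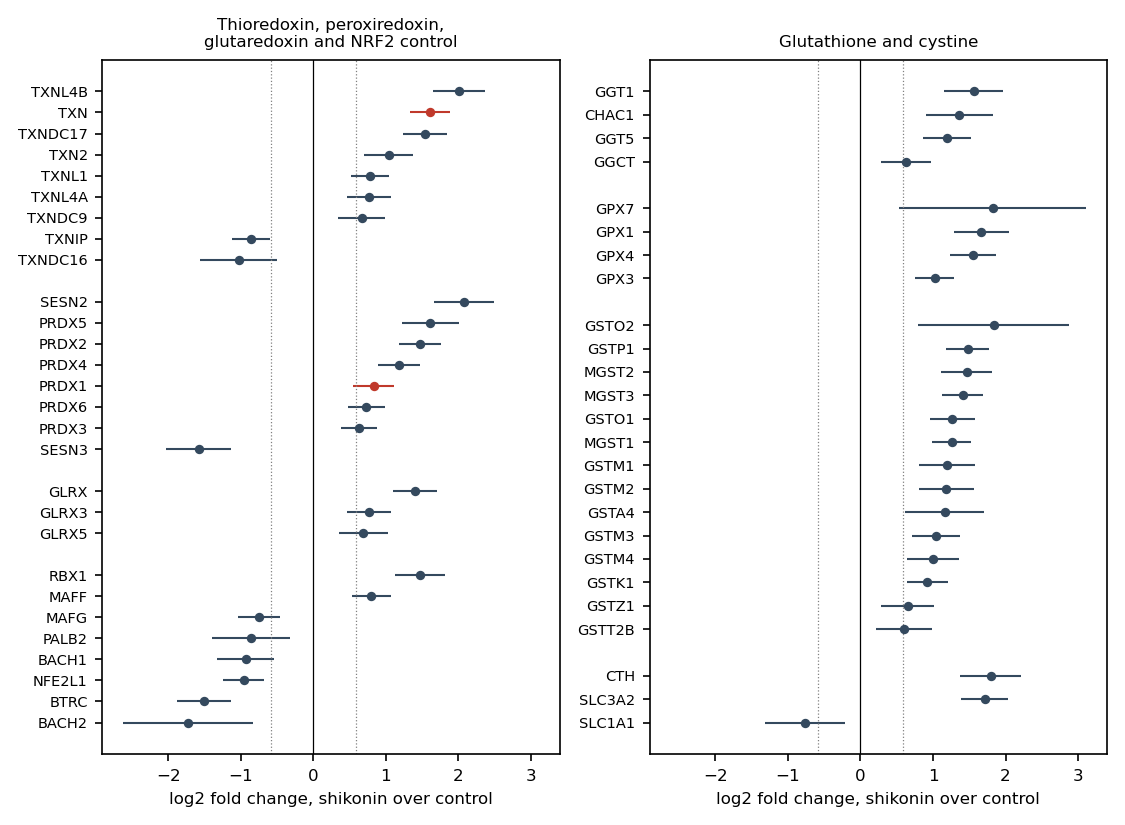
Points give the log2 fold change of shikonin over control from the authors' deposited table and bars its 95% interval, for each gene with a row in 8 lists, separated by gaps. TXN and PRDX1 are red, the solid line marks no change and the dotted lines mark the 1.5-fold threshold of the authors. Nearly all thioredoxin, peroxiredoxin and glutathione genes with a row lie right of 0, while 6 of the 8 genes of NRF2 control lie left of it. Those 6 have long transcripts, of 4003 to 9113 nt, and the contrast was not tested apart from length.

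Of 14 genes for glutathione synthesis, turnover and reduction, 4 were higher, 0 were lower and 10 had no row. The share higher was 28.6%, near the 25.5% of all genes tested. Among the 10 were the synthesis genes GCLC, GCLM and GSS and the reductase gene GSR. The turnover genes GGT6, GGT7, CHAC2, OPLAH, ANPEP and LAP3 had no row either, so turnover and synthesis are not set apart by these calls. The 4 with a row all belong to glutathione breakdown: GGT1 was, by the authors' deposited table, 2.95-fold higher (2.23 to 3.90) and GGT5 2.29-fold higher (1.82 to 2.88), with CHAC1 at 2.57-fold (1.87 to 3.53) and GGCT at 1.55-fold (1.22 to 1.97). The value of GGT1 is uncertain, since the table carries that symbol on 2 identifiers. Of 8 glutathione peroxidase genes 4 were higher and 4 had no row, where 25.5% of all genes tested were higher. GPX4, which reduces lipid peroxides in membranes, was, by the authors' deposited table, 2.93-fold higher (2.35 to 3.65), and GPX1, the main cytosolic form, 3.17-fold higher (2.44 to 4.12). Of 4 glutaredoxin genes 3 were higher, and the authors' deposited table gave GLRX 2.65-fold (2.14 to 3.28), GLRX3 1.71-fold (1.39 to 2.11) and GLRX5 1.62-fold (1.28 to 2.04). With equal implied totals all 4 peroxidase genes but only 1 of the 3 glutaredoxin genes stayed above the fold threshold. GPX3, GPX4, GPX7, GLRX and GLRX5 lie in deciles 1 to 3 of mature transcript length, and GLRX3 in decile 6. In deciles 1 to 3, 91.0% to 97.3% of protein-coding rows were higher. The part of length was not tested.

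Glutathione transferases, which attach glutathione to reactive molecules, had 14 of 21 genes higher, 0 lower and 7 without a row. Of all genes tested, 25.5% were higher and 24.7% lower. Except for GSTM3, the 14 lie in deciles 1 to 3 of mature transcript length, where 91.0% to 97.3% of protein-coding rows were higher. The part of length in this count was not tested. The pair with the smallest p-values were MGST3, a membrane form, and GSTP1, which the authors' deposited table gave as 2.65-fold (2.18 to 3.23) and 2.79-fold (2.26 to 3.43). GSTP1 had an implied mean of 6780 normalized counts in shikonin and 2434 in control by the authors' deposited table. Values of the GSTM genes are uncertain, because these paralogs are close copies whose reads can be split between them.

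Among 9 genes of cystine and cysteine supply, 2 were higher, 1 was lower and 6 had no row. SLC7A11, the cystine transporter itself, had none, whereas its heavy-chain partner SLC3A2 was, by the authors' deposited table, 3.28-fold higher (2.62 to 4.10), with an implied mean of 13531 normalized counts in shikonin and 4125 in control. SLC3A2 also pairs with other amino acid transporters. CTH, which makes cysteine from cystathionine, was, by the authors' deposited table, 3.48-fold higher (2.60 to 4.65), and SLC1A1, a glutamate and cysteine transporter, was 1.70-fold lower (1.16 to 2.49).

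NADPH feeds both systems, and its 21 supply genes examined were 8 higher, 2 lower and 11 without a row. TALDO1 and PGLS of the pentose phosphate pathway were, by the authors' deposited table, 2.18-fold (1.80 to 2.65) and 2.27-fold (1.85 to 2.80) higher, while PGD and TKT had no row. H6PD, which makes NADPH inside the endoplasmic reticulum, was, by the authors' deposited table, 4.20-fold lower (3.49 to 5.05), with an implied mean of 863 normalized counts in shikonin and 3619 in control (adjusted p = 7.03e-50, the authors' DESeq2 test). NADK2, the mitochondrial NAD kinase gene, was, by the authors' deposited table, 2.05-fold lower (1.53 to 2.75). Of 15 quinone and carbonyl reductase genes 11 were higher, 0 were lower and 4, NQO1 among them, had no row. The shares of all genes tested were 25.5% higher and 24.7% lower. AKR1C3 and AKR1B1, both aldo-keto reductases, were, by the authors' deposited table, 4.25-fold (3.29 to 5.49) and 3.81-fold (2.88 to 5.05) higher, where AKR1C paralogs share sequence and AKR1C3 is therefore uncertain. NQO2, the paralog of NQO1, was, by the authors' deposited table, 1.62-fold higher (1.34 to 1.97).

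The superoxide dismutase genes were split. The cytosolic SOD1 was, by the authors' deposited table, 3.01-fold higher (2.48 to 3.66) and the secreted SOD3 2.24-fold higher (1.80 to 2.79), while the mitochondrial SOD2 was 1.61-fold lower (1.37 to 1.90). SOD2 is uncertain, because GENCODE 29 gives that symbol to 2 overlapping genes. By mature transcript length SOD1 lies in decile 1 and SOD3 in decile 3, where 97.3% and 91.0% of protein-coding rows were higher. SOD2, at 14266 nt, lies in decile 10, where 4.6% were higher, and stood at percentile 92.3 of log2 fold change there. The part of length in the split of these genes was not tested. Of 16 genes that control NRF2, 2 were higher, 6 were lower and 8 had no row, among the 8 NFE2L2, which encodes NRF2, and KEAP1. Of all genes tested, 25.5% were higher and 24.7% lower. The 6 lower genes lie in deciles 6 to 10 of mature transcript length, where 4.6% to 33.1% of protein-coding rows were higher. The part of length in this split was not tested. BACH1, a repressor at NRF2 sites, was, by the authors' deposited table, 1.91-fold lower (1.45 to 2.50). NFE2L1, a relative of NRF2, was, by the authors' deposited table, 1.95-fold lower (1.60 to 2.37), and BTRC, a ubiquitin ligase subunit that acts on NRF2, was 2.83-fold lower (2.19 to 3.67). RBX1, a RING subunit of cullin ligases, was, by the authors' deposited table, 2.76-fold higher (2.18 to 3.51) and MAFF, a small MAF partner, 1.74-fold higher (1.44 to 2.11). The other small MAF genes did not follow MAFF: MAFG was, by the authors' deposited table, 1.68-fold lower (1.37 to 2.05), and MAFK had no row. HMOX1, a heme-degrading NRF2 target, was, by the authors' deposited table, 13-fold higher (9.59 to 17.7).

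Selenocysteine is the catalytic residue of thioredoxin reductases and of GPX4, and of 9 genes around selenoprotein synthesis 1 was higher, 3 were lower and 5 had no row. SECISBP2L and SECISBP2, whose proteins bind the selenocysteine signal in messages, were, by the authors' deposited table, 3.74-fold (2.87 to 4.89) and 1.5-fold (1.15 to 1.96) lower. SELENBP1, a selenium-binding protein gene with no part in that synthesis, was the 1 higher, by 2.17-fold (1.65 to 2.84) per the authors' deposited table. Of 11 genes of ferroptosis and lipid peroxide defence, 3 were higher, 1 was lower and 7 had no row. SAT1, a polyamine acetyltransferase gene, and FTL, the ferritin light chain gene, were, by the authors' deposited table, 4.75-fold (3.86 to 5.84) and 2.64-fold (2.18 to 3.21) higher. ACSL4, which loads membranes with oxidisable fatty acids, was, by the authors' deposited table, 2.21-fold lower (1.79 to 2.72).

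**Figure D3:**
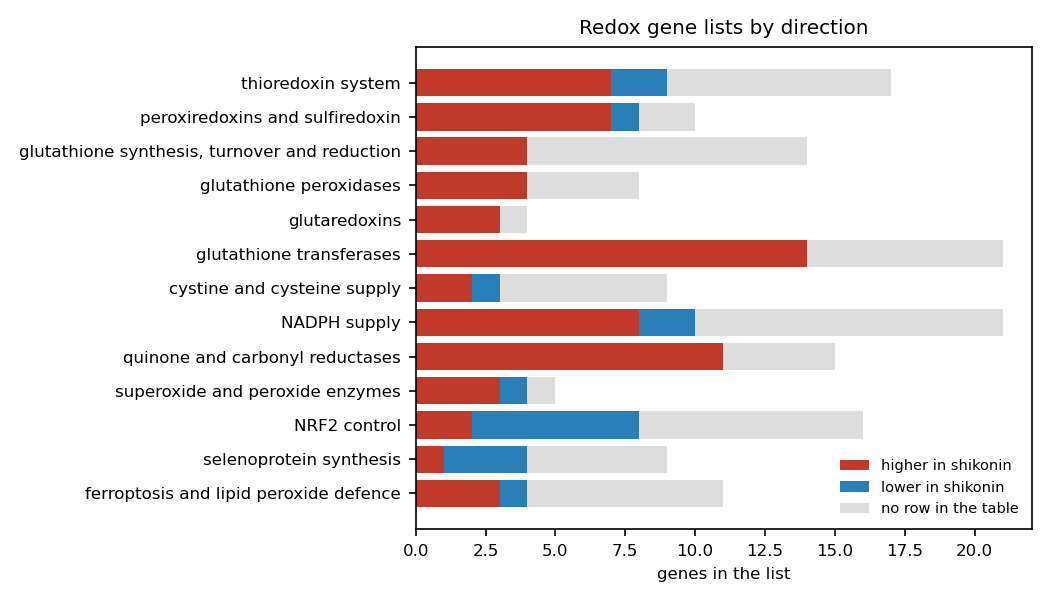
Stacked bars count the genes of each of 13 redox lists that were higher in shikonin (red), lower (blue) or without a row in the authors' deposited table (grey). The glutathione transferase list has 14 higher genes and 0 lower, and the NRF2 control list has 2 higher and 6 lower. Of all genes tested, 25.5% were higher and 24.7% lower, and the lists differ in transcript length.

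Over the 13 lists together, the 160 genes were 69 higher, 17 lower and 74 without a row, or 43.1% higher and 10.6% lower, against 25.5% and 24.7% of all genes tested. The median log2 fold change of the 86 with a row was 1.13 in the authors' deposited table, against 0.60 over all 7150 rows. With equal implied totals 50 of the 160 stayed above the threshold as higher, where 16.8% of all genes tested were higher by the same rule, counting genes with a row. That setting lowers every log2 value by 0.39, less than the log2 of the 1.5-fold threshold. No gene with a row could therefore change sign or leave the lower group. The 17 lower genes and the 24.7% of all genes tested stayed lower by construction. At a fold of at least 2, 16.4% of all genes tested were higher and 14.6% lower, and at an adjusted p below 0.001 (the authors' DESeq2 test) 20.5% were higher and 21.2% lower. The 95% interval lay wholly above 1.5-fold for 16.0% of all genes tested. The members of the lists were picked by function with earlier results of these data known, and no test of the lists was made.

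Transcript length moved with direction in these genes too. The median mature length, from the transcript of longest coding sequence, was 1560 nt for the 69 higher redox genes, 5333 nt for the 17 lower and 2700 nt for the 74 without a row. Across the 86 genes with a row, Spearman's rho between length and the log2 fold change in the authors' deposited table was -0.50, a description across genes that share the same libraries. TXN at 869 nt and PRDX1 at 1234 nt were the shortest of the 9, and the 7 without a row ran from 2289 to 9645 nt. Among protein-coding rows 97.3% of the shortest decile, which holds TXN, and 94.5% of the next, which holds PRDX1, were higher. Within those deciles TXN stood at percentile 59.7 of log2 fold change and PRDX1 at 27.2, so neither was at the top of genes of its length. The part of transcript length in these values was not tested.

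**Figure D4:**
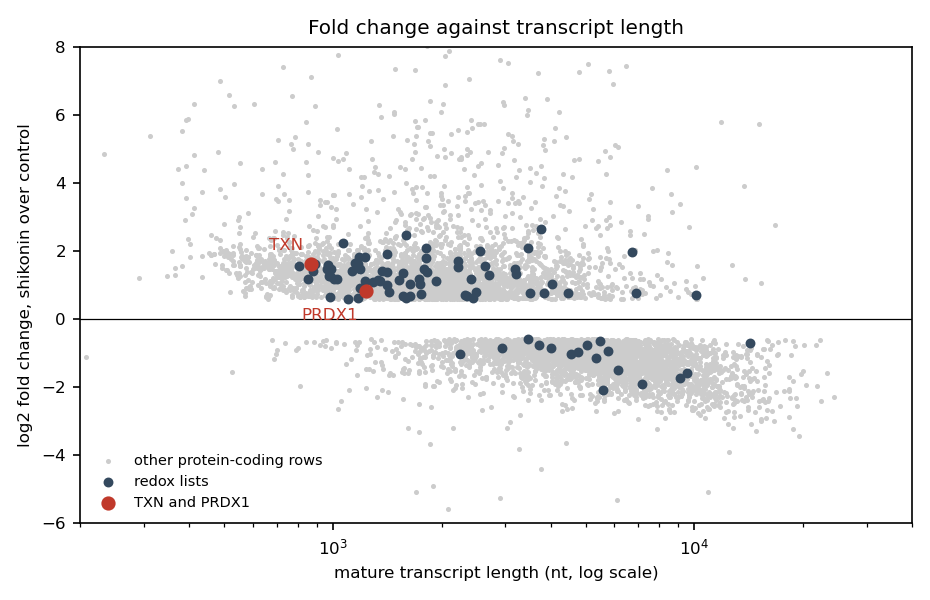
Each point is a protein-coding row of the authors' deposited table, with mature transcript length in nt on a log axis and the log2 fold change of shikonin over control on the vertical axis, cut at -6 and 8, and 14 rows lie outside the plotted range. Redox genes with a row are dark, TXN and PRDX1 are red and larger, and both lie among short transcripts that are mostly higher.

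Promoter windows of 300 bases, 250 before and 50 after the start site (RefSeq, GRCh38.p14), were searched on both strands for TGACNNNGC, the core of the antioxidant response element that NRF2 binds together with a small MAF protein. The table of windows gave 1 or more for 6 of the 9 genes, and PRDX1, SLC7A11 and GSR are named only. TXNRD1 and GCLM, which had no row, held the motif, and TXN, SRXN1, GCLC and NQO1 held no match in this window, from which nothing follows about NRF2. The motif was in 13.3% of all 35116 windows, in 19.7% of 76 windows of higher redox genes, in 18.8% of 96 windows of redox genes without a row and in 4% of 25 windows of lower redox genes. The exact form TGACTCAGC, 1 of the sequences TGACNNNGC covers and one that contains TGACTCA, the letters of the AP-1 site, was in 0.561% of all windows. It was in 2 of 76 windows of higher redox genes (2.63%), those of SLC3A2 and GSTP1, in 2 of 96 windows of redox genes without a row (2.08%), those of ME1 and AIFM2, and in 0 of 25 windows of lower redox genes. These windows are shown with that of TXN so that the form can be compared, with the motif in capitals for SLC3A2 and GSTP1 and, for TXN, the TATA box letters TATAAA, searched on the gene's own strand and found in 7.33% of all windows. The TXN window is chr9:110256458-110256757 on the minus strand, that of SLC3A2 is chr11:62881449-62881748 and that of GSTP1 is chr11:67583562-67583861, both on the plus strand, all written 5′ to 3′.
TXN: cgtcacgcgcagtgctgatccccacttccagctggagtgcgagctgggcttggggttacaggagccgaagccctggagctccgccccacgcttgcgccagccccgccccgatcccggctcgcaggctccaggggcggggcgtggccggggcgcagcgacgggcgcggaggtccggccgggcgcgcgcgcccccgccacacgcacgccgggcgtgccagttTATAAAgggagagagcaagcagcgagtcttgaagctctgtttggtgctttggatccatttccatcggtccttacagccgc
SLC3A2: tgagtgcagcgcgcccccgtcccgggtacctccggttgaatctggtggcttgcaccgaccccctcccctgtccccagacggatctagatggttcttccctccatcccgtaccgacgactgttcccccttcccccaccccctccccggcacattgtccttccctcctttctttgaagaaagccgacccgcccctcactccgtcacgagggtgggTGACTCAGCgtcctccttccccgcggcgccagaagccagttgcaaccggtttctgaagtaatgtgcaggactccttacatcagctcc
GSTP1: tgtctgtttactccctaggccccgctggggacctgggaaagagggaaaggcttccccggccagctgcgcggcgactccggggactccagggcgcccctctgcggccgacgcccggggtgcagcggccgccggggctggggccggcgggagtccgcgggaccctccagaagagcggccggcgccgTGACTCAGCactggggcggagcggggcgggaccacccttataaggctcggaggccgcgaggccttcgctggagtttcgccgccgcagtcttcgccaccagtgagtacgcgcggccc
The motif begins at base 214 of the SLC3A2 window and at base 185 of the GSTP1 window, and TATAAA begins at base 221 of the TXN window. A match is a description of letters and not evidence of binding.

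Markers of cell types were also looked up. Only called genes have a row, so a missing row does not mean that a gene is unexpressed. Counts of higher and lower markers describe the difference between the groups and cannot check the label of the cells. Of 9 markers of mesenchymal breast cancer lines 6 had a row, 3 higher (VIM, CAV1 and SPARC) and 3 lower. The lower ones were, by the authors' deposited table, EGFR by 5.96-fold, FN1 by 1.80-fold and ZEB1 by 1.69-fold. VIM had a mean of 64429 normalized counts over all libraries in the authors' deposited table and SPARC one of 21.1, while the luminal marker KRT19 had 16020. Of 12 luminal epithelial markers 7 were higher, 0 were lower and 5 (CDH1, CLDN3, ESR1, GATA3 and PGR) had no row, where 25.5% of all genes tested were higher. The log2 fold changes were 1.10 to 4.55 in the authors' deposited table. The 4.55 is FOXA1, with an implied mean of only 2.9 normalized counts in control, and the next highest was CLDN7 at 1.85. Of 8 immune and stromal markers 3 were higher, PECAM1, CD68 and ACTA2. PTPRC and CD3E, markers of blood cells, had no row, from which nothing follows about their presence. Neither the part of transcript length in the marker counts nor the part of the marker genes in the redox values was tested.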

How the data were processed

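Per the labels' protocols, the NEBNext Ultra kit was used to build libraries from total RNA, and fastp, HISAT2 2.0.5, DESeq2 and hg38 are named in the submitters' processing notes. The deposited table gives, per the file headers, the mean normalized count over all libraries (a signal divided by size factors by the authors), the log2 fold change with its standard error, the Wald score, and the p-value with its adjusted p-value, for genes past 0.05 in adjusted p and 1.5 in fold. RNA selection, strand, read counter and annotation are not stated in these sources.

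Tests on per-sample values, planned in case such values were held, could not be run. For a deposit with the authors' comparison alone, the plan was to use their values without a further test, as was done. No replicate block was planned, and no library could be left out. From the deposited values, fold intervals (95%, normal), implied group means, equal implied totals and the number of genes tested (14252, the whole number that made the recovered ranks whole in 788 rows with p above 0.002, a step tested on simulated data) were computed with Python 3.11.15 and pandas 2.3.3. Symbols were matched to the table, and 7142 of 7150 identifiers to GENCODE 29. The members and lists were chosen with earlier results of these data known. A few genes of the planned lists are not reported here. Named genes were all 9 members, the 2 smallest adjusted p in each direction of each list, every gene of a list with 3 or fewer rows, and NFE2L2, KEAP1, BACH1 and HMOX1. TXN2, PRDX3 to PRDX6, CHAC1, GGCT, MAFG, NQO2, ME1, AIFM2 and the markers were named after their values were seen.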

Additional observations from a re-analysis of the deposited data

How the results depend on the processing

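No paired analysis was possible because the table holds the authors' comparison and no per-sample values, and for the same reason no library could be left out. TXN was above the fold threshold with equal implied totals, at a log2 fold change of 1.21, against 1.61 by the authors' scaling. Asking for an implied mean of at least 10 in both groups could not alter its value. Equal totals lower every gene alike, so the place of TXN follows from its listed value and is no independent check. Setting the implied totals equal gave PRDX1 a log2 value of 0.44, below the threshold. Because that setting lowers every value by 0.39, less than the log2 of the threshold, neither gene could change direction. The direction they kept is therefore no check. The number of the 9 genes called higher, 2 by the authors' rule, was 1 at a fold of at least 2, 1 with the 95% interval beyond 1.5-fold, 1 with equal implied totals and 2 at an adjusted p below 0.001. For the other 151 redox genes, the 67 higher became 48 at a fold of at least 2, 49 with equal implied totals and 61 at an adjusted p below 0.001. The 17 lower became 8, 17 and 13 under the same settings, where unlisted genes that equal totals would add as lower are not held. The 17 under equal totals was fixed in advance, since that setting lowers every value. Taking the longest principal transcript, an alternative chosen after seeing the data, moved the length-decile percentile of TXN to 59.5 and of PRDX1 to 24.7. Depth limits cannot be given, as library totals are not held.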
